A study of Mus musculus with 13 samples.

Results

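The 10 genes followed here mark epithelial cells in many organs and were measured in melanoma cells recovered from mouse lung. They are the mucin Muc1, the secreted protein gene Wfdc2, the sodium pump subunit gene Atp1b1, the adhesion and junction genes Epcam, Cdh1 and Cldn3, and the keratin genes Krt7, Krt8, Krt18 and Krt19. All 10 members were found by symbol among the 22656 genes of the deposited table. Muc1, Wfdc2 and Atp1b1 were selected on their levels in APOE2 against APOE3 libraries, so their values in that comparison are given as a description with no test. The other 7 members were listed by their function. The tumour cells were B16F10-TR-shApoe, a line derived from the mouse melanoma B16F10 that carries a hairpin RNA against Apoe, and 100000 of them were injected into the tail vein of knock-in mice with the APOE2 or the APOE3 allele. Every library of both groups therefore came from cells with the hairpin. On day 15 the lungs were digested with collagenase. Cells were then sorted for GFP, for the absence of CD45, a surface antigen of leukocytes, and for low staining with the dead-cell dye TO-PRO-3. There were 8 APOE2 and 5 APOE3 libraries, 1 for each mouse by the series' own count of animals. The age and sex of the mice and the meaning of TR are not given in the sources used here.

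Simple epithelia line organs such as the lung, and their cells are held together by junctions and stiffened by keratin filaments. Cdh1 encodes E-cadherin, which joins neighbouring cells at adherens junctions, Cldn3 encodes a claudin of the tight junction, and Epcam encodes a surface adhesion molecule used to sort epithelial cells. Keratin filaments need a type II keratin such as Krt7 or Krt8 paired with a type I keratin such as Krt18 or Krt19. Muc1 encodes a transmembrane mucin of the apical surface, Wfdc2 a small secreted protein with whey acidic protein domains that is made in the airways, and Atp1b1 the beta subunit of the sodium potassium pump, which many other cell types also express. Melanocytes come from the neural crest and are not an epithelium of this kind.

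The promoter windows of the members that could be followed in most libraries are shown so that the short motifs named next can be read in place. RefSeq windows on GRCm38.p6, from 250 bases before to 50 bases after the start that RefSeq gives, were found for 8 of the 10 members. Cdh1 and Krt19 had no entry. The RefSeq start can differ from the GENCODE gene start used for the loci, and the windows of Wfdc2 and Krt7 lie inside their GENCODE genes. Capitals mark CACCTG, the E-box core bound by the Snai and Zeb repressors of epithelial genes, and CCGCCC, the GC box, on either strand.
Muc1, chr3:89228806-89229105, plus strand: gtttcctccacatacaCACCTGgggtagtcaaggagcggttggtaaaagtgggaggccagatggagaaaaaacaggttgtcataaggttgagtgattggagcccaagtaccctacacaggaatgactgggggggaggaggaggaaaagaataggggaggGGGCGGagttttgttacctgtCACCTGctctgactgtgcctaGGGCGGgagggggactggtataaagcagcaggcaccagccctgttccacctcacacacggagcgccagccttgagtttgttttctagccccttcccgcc
Wfdc2, chr2:164562465-164562764, plus strand: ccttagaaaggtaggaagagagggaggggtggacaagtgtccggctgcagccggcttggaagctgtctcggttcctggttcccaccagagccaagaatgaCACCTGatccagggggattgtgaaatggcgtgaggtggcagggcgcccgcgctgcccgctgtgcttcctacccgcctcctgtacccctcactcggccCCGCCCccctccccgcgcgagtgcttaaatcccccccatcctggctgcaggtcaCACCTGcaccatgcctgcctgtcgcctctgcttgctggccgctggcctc
Atp1b1, chr1:164458306-164458605, minus strand: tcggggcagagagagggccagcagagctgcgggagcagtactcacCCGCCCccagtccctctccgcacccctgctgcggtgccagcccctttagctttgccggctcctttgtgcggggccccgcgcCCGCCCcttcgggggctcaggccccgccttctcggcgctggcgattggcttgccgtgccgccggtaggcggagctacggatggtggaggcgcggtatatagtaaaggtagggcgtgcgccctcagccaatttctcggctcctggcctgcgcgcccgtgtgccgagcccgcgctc
Cldn3, chr5:134985964-134986263, plus strand: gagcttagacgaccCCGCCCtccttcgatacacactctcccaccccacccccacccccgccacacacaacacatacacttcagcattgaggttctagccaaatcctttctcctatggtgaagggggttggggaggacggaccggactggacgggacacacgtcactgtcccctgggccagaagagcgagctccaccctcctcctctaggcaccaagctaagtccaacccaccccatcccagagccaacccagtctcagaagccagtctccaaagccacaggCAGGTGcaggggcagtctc

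The E-box letters occurred in 7 of the 8 member windows, against 20.2% of all 32851 windows of the same length, and Atp1b1 was the member without them. The GC box letters occurred in 6 of the 8, against 35.7% of all windows, and Krt8 and Krt18 were the members without them. These matches describe the letters only. Muc1 lies on chromosome 3, Wfdc2 on 2, Atp1b1 on 1, Cldn3 on 5, Epcam on 17, Cdh1 on 8 and Krt19 on 11. Krt7 (101411043 to 101430313), Krt8 (101996698 to 102004482) and Krt18 (102028180 to 102032027) share chromosome 15 (GENCODE M21, GRCm38, which is mm10), where Krt8 and Krt18 lie on opposite strands.

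The members made up a small part of each library. Recovered reads ran from 7080308 to 13039989 per library. Values are normalised counts, reads divided by a size factor of the library. The 10 members together summed to 68.9 to 371 normalised counts in APOE2 (median 221) and to 357 to 1686 in APOE3 (median 1024). Scaled to 1000000 normalised counts in each library, the APOE2 sums spanned 8.07 to 42.5 and the APOE3 sums 43.8 to 203. The 7 melanocyte markers, Dct among them, summed to 295578 to 454459 normalised counts in APOE2 and to 213130.2 to 327639 in APOE3, so markers of the labelled cell type were read at high levels in every library. The number of members with reads ran from 4 of the 10 in APOE2 replicate 4 to all 10 in APOE2 replicate 1 and APOE3 replicates 3 and 4. APOE3 replicate 1 stood apart from the other APOE3 libraries: its member sum of 357 lay inside the APOE2 range, as did its summed surfactant genes, and its scaled sum of 43.8 lay just above that range. In bulk samples such as these, fewer cells of a type and less RNA per cell cannot be told apart.

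**Figure D1:**
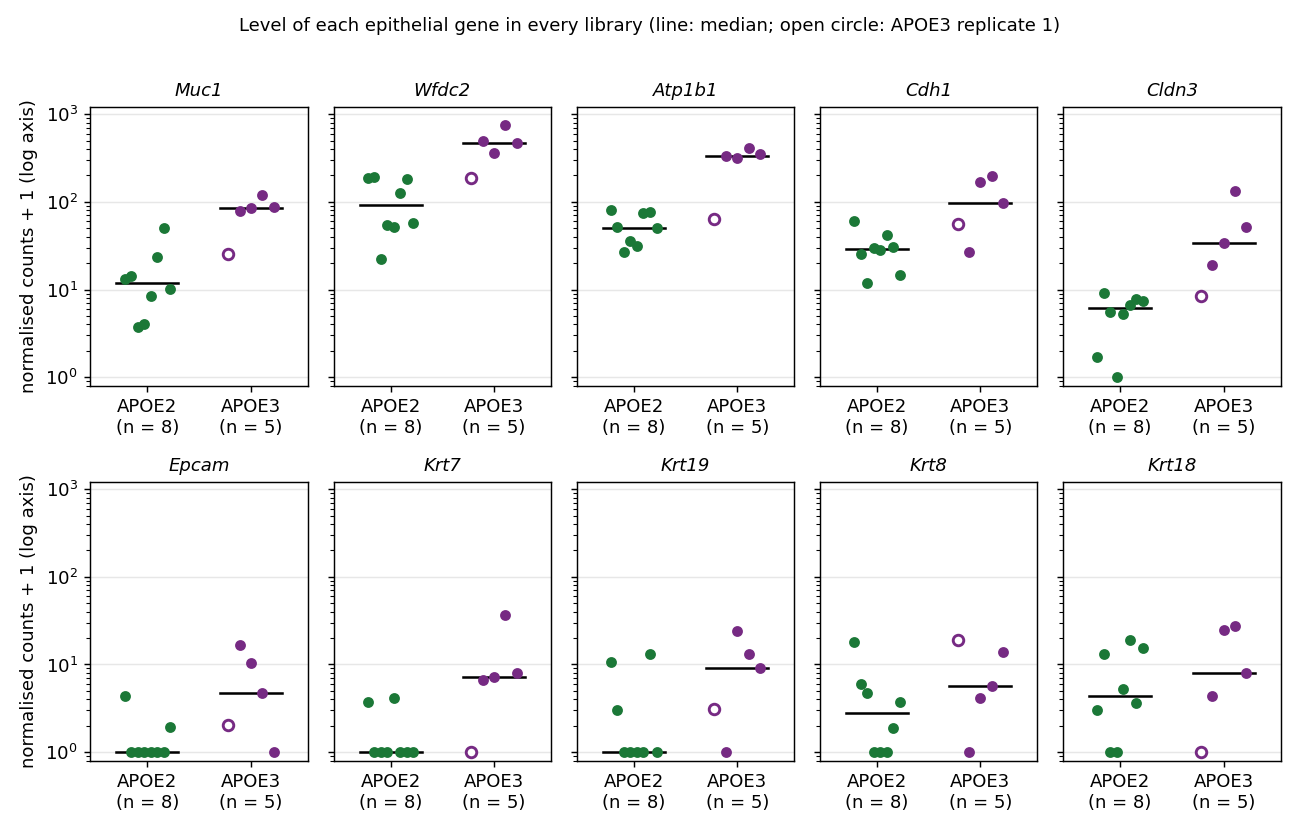
Each panel shows 1 gene, with the genotype on the x axis and normalised counts plus 1 on a log axis, 1 point per library and a line at the median. In the upper row the APOE3 medians lie above all APOE2 points. APOE3 replicate 1 (open circle) is the lowest APOE3 point there except for Cdh1, where replicate 2 is the lowest. In the lower row many points sit at 0 reads, drawn at 1.

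The mucin, secreted and pump genes were read in all 13 libraries. Muc1 (ENSMUSG00000042784) ran from 2.76 to 49.2 normalised counts in APOE2, with a median of 10.7. In APOE3 it had 24.2, 76.8, 84.3, 119 and 86.8 in replicates 1 to 5. APOE2 replicate 7 was the 1 APOE2 library above the lowest APOE3 library, so the groups overlapped. The means were 14.9 ± 15.2 (SD, n = 8) and 78.1 ± 34.1 (SD, n = 5), and the difference on the log2(value + 1) scale was −2.63.

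Wfdc2 (ENSMUSG00000017723) ran from 21.1 to 189.8 normalised counts in APOE2, with a median of 91.6. In APOE3 it had 188, 499, 357, 745 and 467. The groups met only where APOE2 replicate 2, at 189.8, passed APOE3 replicate 1. The means were 108 ± 70.5 (SD, n = 8) and 451 ± 204 (SD, n = 5), a log2 difference of −2.26. APOE2 replicates 1 and 2 were also the libraries with the most club cell transcripts, at 483 and 1728 summed normalised counts of 5 markers such as Scgb1a1, while the other 11 libraries held 0.919 to 48.6. Without APOE2 replicate 2 the highest APOE2 value of Wfdc2 was 184 and the log2 difference −2.42.

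Atp1b1 (ENSMUSG00000026576) ran from 25.7 to 79.7 normalised counts in APOE2, with a median of 49.9. In APOE3 it had 62.1, 329.9, 317, 412 and 355. In APOE3 all but replicate 1 were above every APOE2 library, and replicate 1 lay within the APOE2 range. The means were 52.5 ± 21.6 (SD, n = 8) and 295 ± 135 (SD, n = 5), a log2 difference of −2.34. Exons of Atp1b1 overlap Nme7 on the opposite strand. The strand setting of the read counting is not given in the sources used here, so reads of the pair may be mixed. Nme7 itself had 113 ± 29.1 normalised counts (SD, n = 8) and 127 ± 45.0 (SD, n = 5).

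Among the adhesion and junction genes, 2 of 3 had a mean of at least 10 normalised counts and were tested. Cdh1 (ENSMUSG00000000303) reached at most 60.0 normalised counts in APOE2, with a median of 28.1 and 12 reads in its lowest library, replicate 3. In APOE3 it had 54.8, 26.0, 167, 195 and 94.9. APOE3 replicates 3, 4 and 5 were above all 8 APOE2 libraries, and replicates 1 and 2 lay within the APOE2 range. The log2 difference was −1.67 ± 0.48 (SE), all 8 APOE2 libraries were below the APOE3 median, and limma gave an unadjusted p of 0.00181 and an adjusted p of 0.103.

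Cldn3 (ENSMUSG00000070473) was nearly unread in APOE2, from 0 to 8.08 normalised counts with a median of 5.12. In APOE3 it had 7.37, 18.1, 33.3, 133 and 50.9. Only APOE3 replicate 1 overlapped the APOE2 libraries. The log2 difference was −2.86 ± 0.81 (SE), with an unadjusted p of 0.00171 and an adjusted p of 0.101 by limma. Cldn3 passed the filter on low values through its APOE3 libraries alone, so it had to differ to be tested, and its p-values are given as values that support nothing. Its exons overlap those of Wbscr25 on the opposite strand, as do those of Krt7 and Krt8 with Gm671 and Gm36026, and none of these 3 overlapping genes has a deposited row.

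By limma, 0 of the 2 tested members that were listed by function had an adjusted p under 0.05. Both had an unadjusted p under 0.05, as did 1763 of all 12403 genes tested. Cldn3, 1 of the 2, had to differ to be tested, so nothing is read from that count. Over all 12403 genes tested, 47 were called lower in APOE2, which is 0.379%. On the recovered reads, edgeR's quasi-likelihood test gave an adjusted p of 0.0379 for Cdh1 and 0.0239 for Cldn3, and called 0.621% of all genes tested lower. DESeq2 gave 0.00524 and 0.000631 and called 1.27% lower. With a pseudocount of 5 Cldn3 had 0.0489 by limma. Cdh1 was called by limma without APOE3 replicate 2 (adjusted p = 0.0306, log2 difference −2.09) and Cldn3 without APOE3 replicate 1 (adjusted p = 0.0401, log2 difference −3.35). Among all genes tested, 73 were called lower with a pseudocount of 5, 32 without APOE3 replicate 2 and 97 without APOE3 replicate 1. With 1 library left out, adjusted p-values by limma ran from 0.0306 to 0.245 for Cdh1 and from 0.0401 to 0.261 for Cldn3.

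Epcam (ENSMUSG00000045394), the surface marker of epithelial cells, was close to absent. It had 6 reads over the 8 APOE2 libraries together, 5 of them in replicate 1, and 6 libraries had 0. In APOE3 the 5 libraries had 1, 14, 9, 4 and 0 reads. A library with 0 reads allows up to 3 reads, or 2.04 to 3.47 normalised counts depending on the library, for counting error only.

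The keratins were read at a similarly low level. Krt7 (ENSMUSG00000023039) had 4 reads in APOE2 replicate 1, 3 in replicate 5 and 0 in the other 6, against 0, 5, 6, 38 and 6 in APOE3. Most of its APOE3 reads thus came from replicate 4, and all but replicate 1 of the APOE3 libraries were above every APOE2 library. Krt19 (ENSMUSG00000020911) had reads in 3 of 8 APOE2 libraries, 14 in each of replicates 1 and 7 and 2 in replicate 2. In APOE3 it had 2, 0, 22, 13 and 7 reads.

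The paired keratins Krt8 and Krt18 were read together in some libraries and apart in others. Both had reads in APOE2 replicates 1, 2, 7 and 8 and in APOE3 replicates 3, 4 and 5. Libraries where their reads differed are given next. Krt8 (ENSMUSG00000049382) had 25 reads in APOE2 replicate 1, where Krt18 (ENSMUSG00000023043) had 3. In APOE2 replicate 6 Krt18 had 16 reads and Krt8 had 0. In APOE3 replicate 1 Krt8 had 17 reads and Krt18 had 0. Over all APOE2 libraries Krt8 had 38 reads and Krt18 had 54, against 36 and 60 over the 5 APOE3 libraries. The ranges overlapped for both, 0 to 17.0 against 0 to 17.9 normalised counts for Krt8 and 0 to 18.1 against 0 to 26.4 for Krt18. All 4 keratins were at 0 reads in APOE2 replicate 4, and they reached a sum of 84 reads in APOE3 replicate 4.

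**Figure D2:**
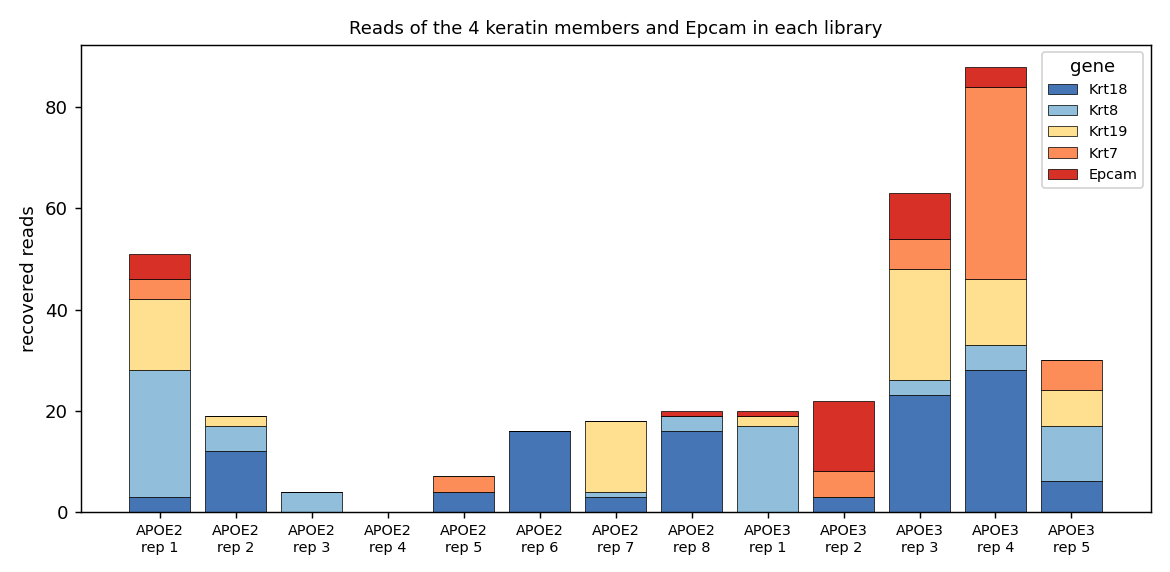
The x axis lists the 13 libraries and each bar stacks the recovered reads of Krt18, Krt8, Krt19, Krt7 and Epcam, starting from 0. The bars run from 0 in APOE2 replicate 4 to the highest in APOE3 replicate 4, where Krt7 had 38 reads, and different genes lead in different libraries.

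These 5 genes had means of 2.64 to 8.79 normalised counts over all libraries, below the filter of 10, and did not enter the main test. The two-sided exact permutation test over all 1287 assignments of the genotypes, whose smallest possible p is 0.000777, was run on each of the 7 members listed by function, with no adjustment over them. Epcam gave p = 0.0140 (exact permutation, log2 difference −1.76) and Krt7 gave p = 0.00932 (exact permutation, −2.26). Krt19 gave p = 0.139 (exact permutation, −1.54), Krt8 gave p = 0.265 (−1.04) and Krt18 gave p = 0.503 (−0.69). For the members tested by limma the same exact permutation test gave p = 0.0124 for Cdh1 and p = 0.00155 for Cldn3. With no filter on low values, the limma adjusted p-values over all genes were 0.364 for Epcam, 0.286 for Krt7, 0.624 for Krt19, 0.723 for Krt8 and 0.804 for Krt18.

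The 7 members listed by function all had a lower mean log2 value in APOE2, with a median difference of −1.67, while the median over the tested genes was 0.00 and 49.9% of them were below 0. Of the 7, only Cdh1 and Cldn3 were among the tested genes. The median over all deposited genes was 0.024, and 53.1% of tested genes with a mean of 10 to 100 were below 0. Over all 10 members, of which 3 were picked for being lower, the median was −2.01, and nothing is read from it. For no member did all APOE2 libraries lie below all APOE3 libraries, a pattern found in 0.508% of tested genes. Without APOE3 replicate 1 the groups did not overlap for 5 members (Muc1, Wfdc2, Atp1b1, Cldn3 and Krt7), of which the first 3 were chosen on this contrast. The same held for 1.56% of tested genes. The library left out was the lowest APOE3 library for each of the 5, Cldn3 had to differ to be tested, and Krt7 was not among the tested genes. Nothing is therefore read from the 5. Leaving out single libraries kept each of the 10 differences below 0. The range with 1 of the 13 left out was −3.00 to −2.40 for Muc1, −2.54 to −1.98 for Wfdc2, −2.83 to −2.15 for Atp1b1, −2.09 to −1.37 for Cdh1 and −3.35 to −2.35 for Cldn3, and the one nearest 0 was −0.22 for Krt18 without APOE3 replicate 4.

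**Figure D3:**
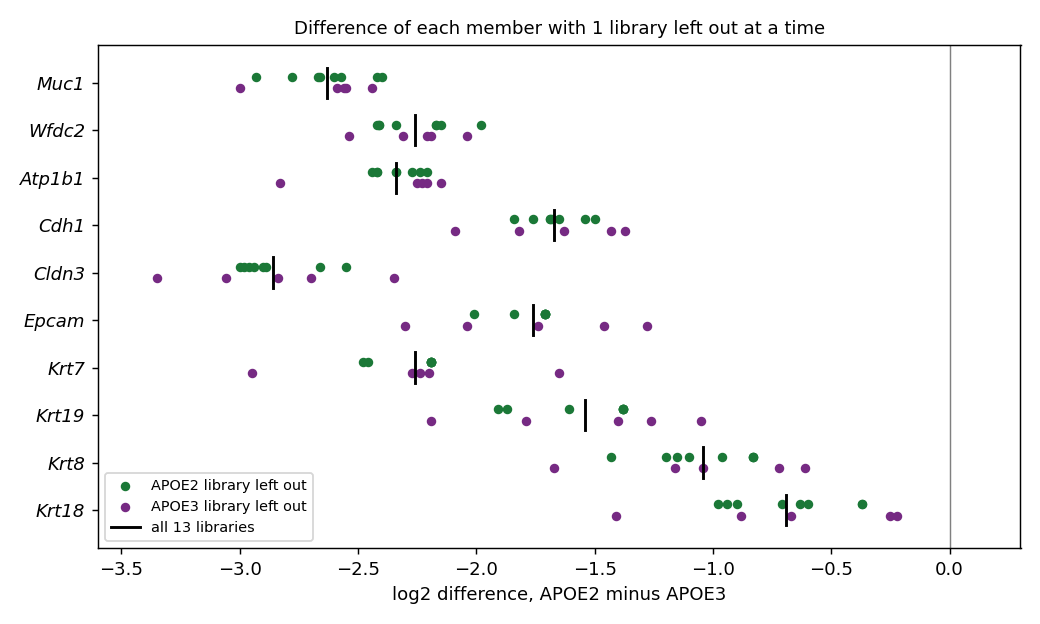
For each member the x axis gives the log2 difference, APOE2 minus APOE3, with 1 point for each library left out and a black line for all 13 libraries. All points lie below 0, and for every member the lowest point comes from leaving out an APOE3 library.

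The lung holds several cell types in which members of the list are expressed, so markers of those cells were measured beside them. The 4 surfactant genes Sftpa1, Sftpb, Sftpc and Sftpd of alveolar type 2 cells, a lung epithelial cell, summed to 572 to 3727 normalised counts in APOE2 and to 3009.5 to 19403 in APOE3. Of 10 alveolar type 2 markers, 7 were called lower in APOE2 by limma and the median log2 difference was −2.27. Of 5 tested alveolar type 1 markers 0 were called (median −1.15), with unadjusted p-values of 0.00495 for Ager and 0.0189 for Rtkn2. Of 4 tested club cell markers and 3 tested ciliated cell markers 0 were called, with medians of 1.70 and 0.07. Most club cell transcripts came from APOE2 replicates 1 and 2. The summed club cell markers had a median of 9.11 normalised counts in APOE2 and 43.3 in APOE3. Scgb3a1, Scgb3a2 and Bpifa1 had a mean of 0 in APOE3 and passed the filter through APOE2 alone, so the club cell median supports nothing. Mesothelial cells, which cover the lung, also carry simple keratins. Of their 2 tested markers, Upk3b (−1.33) and Msln (−0.66), 0 were called. The mesothelial markers summed to 3.68 to 87.6 normalised counts in APOE2 and to 34.8 to 301 in APOE3.

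Some markers of cells outside the epithelium were called lower in APOE2. They were 2 of 14 endothelial markers (Calcrl and Esam, list median −1.56), 2 of 8 fibroblast and smooth muscle markers (Mgp and Acta2, −1.23) and 2 of 7 leukocyte markers (Lyz2 and Cd74, −0.95). The endothelial genes Emcn, Tek and Tie1, with means of 4.6, 5.99 and 5.7 in APOE2, passed the filter through APOE3 alone. Nothing is therefore read from the endothelial median. Mouse alveolar type 2 cells are known to express Lyz2 and Cd74 as well. Of 3 erythroid and 7 melanocyte markers 0 were called, each with a median of 0.07. No gene of these marker lists was called higher in APOE2. These lists were drawn up with earlier results of these libraries known, and the part of each cell type in the members' differences was not tested.

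Whether the members followed the surfactant genes was examined among the 8 APOE2 libraries alone, a relation that does not use the difference between genotypes. The APOE2 values of Muc1, Wfdc2 and Atp1b1 were still among the values on which those 3 were picked, so their p-values are not free of that choice. In log2 values, Atp1b1 had Pearson r = 0.931 (exact permutation p = 0.000694, adjusted over 5 relations 0.00347) and Spearman rho = 0.952 (permutation p = 0.00114, adjusted 0.00570). Wfdc2 had r = 0.915 (exact permutation p = 0.00186, adjusted 0.00465) and rho = 0.810 (permutation p = 0.0218, adjusted 0.0272). Muc1 had r = 0.783 (exact permutation p = 0.0216, adjusted 0.0344) and rho = 0.857 (permutation p = 0.0107, adjusted 0.0268). Cdh1 had r = 0.767 (exact permutation p = 0.0275, adjusted 0.0344) and rho = 0.810 (permutation p = 0.0218, adjusted 0.0272). Cldn3 had r = −0.0854 (exact permutation p = 0.850, adjusted 0.850) and rho = 0.238 (permutation p = 0.582, adjusted 0.582).

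Replicates 3 and 5 were farthest from the median of the surfactant sum, and both were low. Without them r was 0.846 for Atp1b1, 0.783 for Wfdc2, 0.753 for Muc1, 0.771 for Cdh1 and 0.0788 for Cldn3, over 6 libraries. The exact permutation p was 0.0444 for Atp1b1 and 0.0681 to 0.0944 for Wfdc2, Muc1 and Cdh1, so for those 3 the relation did not pass the threshold over 6 libraries, with r at 0.753 to 0.783. Without APOE2 replicate 3 alone, only Atp1b1 had an adjusted p under 0.05, with Wfdc2 at 0.0809, Muc1 at 0.141 and Cdh1 at 0.204 (exact permutation). Atp1b1 and Wfdc2 passed without replicate 2 and without replicate 6. Muc1 and Cdh1 each had an adjusted p of 0.0575 without replicate 2 and of 0.0672 without replicate 6 (exact permutation). Muc1 also missed the threshold without replicate 7 (adjusted p = 0.0724, exact permutation), and Cdh1 without replicate 1 (0.0662) and without replicate 4 (0.0583). With 1 library left out, the relation of Muc1 thus missed it in 4 of 8 cases and that of Cdh1 in 5 of 8. Cldn3 had 0 to 8 reads in each APOE2 library, which limits what this relation can show for it. Values that are summed and scaled within the same libraries share their depth and scaling. The 5 APOE3 libraries were too few for the same test. How many of all tested genes follow the surfactant sum in the same way was not computed, so the relation is not read as particular to these members.

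**Figure D4:**
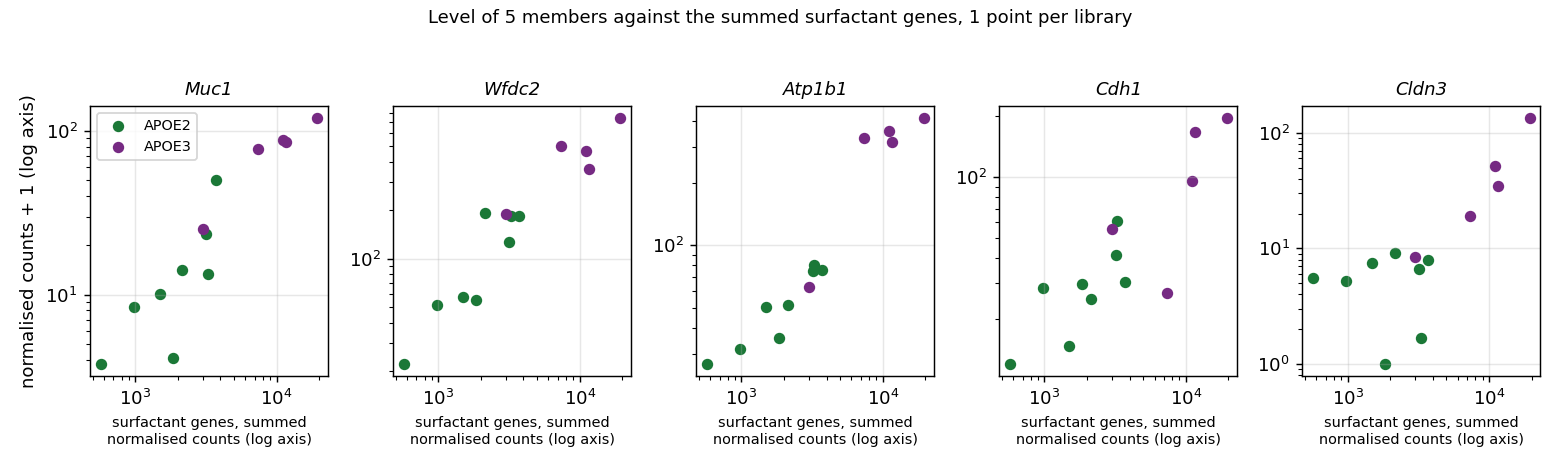
Each panel plots 1 member (normalised counts plus 1) against the summed counts of Sftpa1, Sftpb, Sftpc and Sftpd, both on log axes, 1 point per library in the colour of its genotype. Atp1b1 and Wfdc2 climb with the surfactant sum within APOE2, and the APOE2 points of Cldn3 rest on 0 to 8 reads each.

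The members were also set against the surfactant genes of the same library. Per 1000 normalised counts of summed surfactant genes, Wfdc2 had 29.3 to 88.3 (median 44.4) in APOE2 and 30.8 to 67.9 (median 42.2) in APOE3. Atp1b1 had 18.8 to 45.0 (median 23.9) and 20.7 to 44.9 (median 27.4). Muc1 had 1.66 to 13.2 (median 6.13) and 6.11 to 10.4 (median 7.83). For Cdh1 the medians were 14.1 and 10.0, and for Cldn3 they were 2.81 and 2.87. The ranges of all 5 overlapped, and these ratios are given without a test.

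The genes most like each member were found by Pearson r of log2 values over the 13 libraries after the mean of each genotype was subtracted. They are the highest of 12402 and are given as a description. For Muc1 they were Sftpd (r = 0.92), Cmtm8 (0.90) and Sfta2 (0.90), and for Wfdc2 they were Cbr2 (0.95), Sec14l3 (0.91) and Sfta2 (0.90). For Atp1b1 they were Tead4 (0.94), Sftpc (0.91) and Polr1b (0.89). For Cdh1 they were Fbxl6 (0.92), Nnat (0.89) and Itih4 (0.88), and for Cldn3 they were Zfp114 (0.85), Ramp2 (0.84) and Mllt3 (0.80). The 4 surfactant genes stood at ranks 4 to 27 for Wfdc2, 1 to 41 for Muc1, 2 to 34 for Atp1b1, 18 to 658 for Cdh1 and 522 to 2051 for Cldn3. Between members, r was 0.79 to 0.83 for the pairs of Muc1, Wfdc2 and Atp1b1 and 0.19 for Cdh1 with Cldn3.

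Most other keratin and mucin genes had too few reads to be tested. Among 14 other keratins, 7 had a deposited row and Krt80 was the 1 that was tested, at a mean of 74.8 ± 28.5 for APOE2 and 82.1 ± 48.7 for APOE3 (SD of normalised counts, n = 8 and 5). The log2 difference was −0.06 (limma adjusted p = 0.958). Of 9 other mucins 7 had a row and 0 were tested, and each was at 0 reads in at least 8 of the 13 libraries. Some of the untested genes had a higher mean in APOE3, such as Krt23, with 0.108 ± 0.305 and 14.2 ± 19.0 normalised counts (SD, n = 8 and 5), and Muc16, with 0.983 ± 1.38 and 7.80 ± 11.1. The mucins Muc5b, Muc5ac and Muc15 went the other way, with means of 4.92, 0.757 and 0.509 in APOE2 and 0 in APOE3. All of these genes were chosen after their values were seen, so no direction is read from them.

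The tested tight junction genes had differences on both sides of 0. Of the 15 with deposited values, 7 were tested by limma and 0 were called, with a list median of −0.40 and 2 of the 7 above 0. Cldn18, a lung claudin, had 48.8 ± 34.2 and 282 ± 237 normalised counts (SD), a log2 difference of −2.84 (unadjusted p = 0.000803, adjusted 0.0696). Tjp3, a scaffold protein of the junction, had 19.5 ± 12.5 and 3.19 ± 3.65 (SD), a difference of 2.63 in the opposite direction (unadjusted p = 0.00290, adjusted 0.123). Tjp3 passed the filter on low values through its APOE2 libraries alone, so its p-values support nothing. Occludin (Ocln) was at 0 reads in at least 8 libraries.

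The cytoplasmic partners of E-cadherin were read at high levels in both groups. The catenin genes Ctnnb1 (14866 ± 1462 and 15806 ± 546 normalised counts, SD, n = 8 and 5) and Ctnna1 (1773 ± 237 and 1644 ± 198) had log2 differences of −0.09 and 0.11. Of 7 tested adherens junction and desmosome genes 0 were called by limma (median −0.13). Those with the smallest p were Pkp2 (−0.75, unadjusted p = 0.0512) and Jup (−0.36, 0.0787). Of 17 regulators and surface proteases of epithelial cells with deposited values, 4 were tested and 0 were called (median −0.69), among them Grhl1 (−1.52, adjusted p = 0.439) and Klf5 (−0.85, adjusted p = 0.555). Grhl1 and Spint1, with means of 6.57 and 9.21 in APOE2, passed the filter through APOE3 alone, so nothing is read from that median. Grhl2, Ovol2, Elf3, Ehf, St14, Spint2 and Cdcp1 were at 0 reads in at least 8 of the 13 libraries.

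Genes of the mesenchymal state, which repress or replace this epithelial set, ran from high levels to almost no reads. The filament gene Vim had 6475 ± 342 and 6056 ± 1251 normalised counts (SD, n = 8 and 5), and the repressor gene Zeb2 had 945 ± 185 and 997 ± 409, while Twist1 and Twist2 were at 0 reads in at least 8 of the 13 libraries. Of 6 tested genes 0 were called by limma (median −0.04, 0 with an unadjusted p under 0.05). The smallest p was that of Zeb1 (−2.02, unadjusted p = 0.0599), followed by Vim (0.12, 0.303).

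The pump partners of Atp1b1 had log2 differences on both sides of 0, with a median of −0.66 over the 6 tested. Another beta subunit gene, Atp1b3, had 3721 ± 211 and 2918 ± 441 normalised counts (SD, n = 8 and 5), a log2 difference of 0.36 (limma adjusted p = 0.103). Of 6 tested genes of the pump 1 was called, the regulator Fxyd5, with 186 ± 38.9 and 330.4 ± 78.2, a difference of −0.81 ± 0.19 (SE, limma adjusted p = 0.0382). Among other genes of the whey acidic protein family, 3 were tested and 0 were called by limma (median −0.25), with Slpi at −1.14 (unadjusted p = 0.00897, adjusted 0.195) and Wfdc3 at 1.75 (unadjusted p = 0.112).

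**Figure D5:**
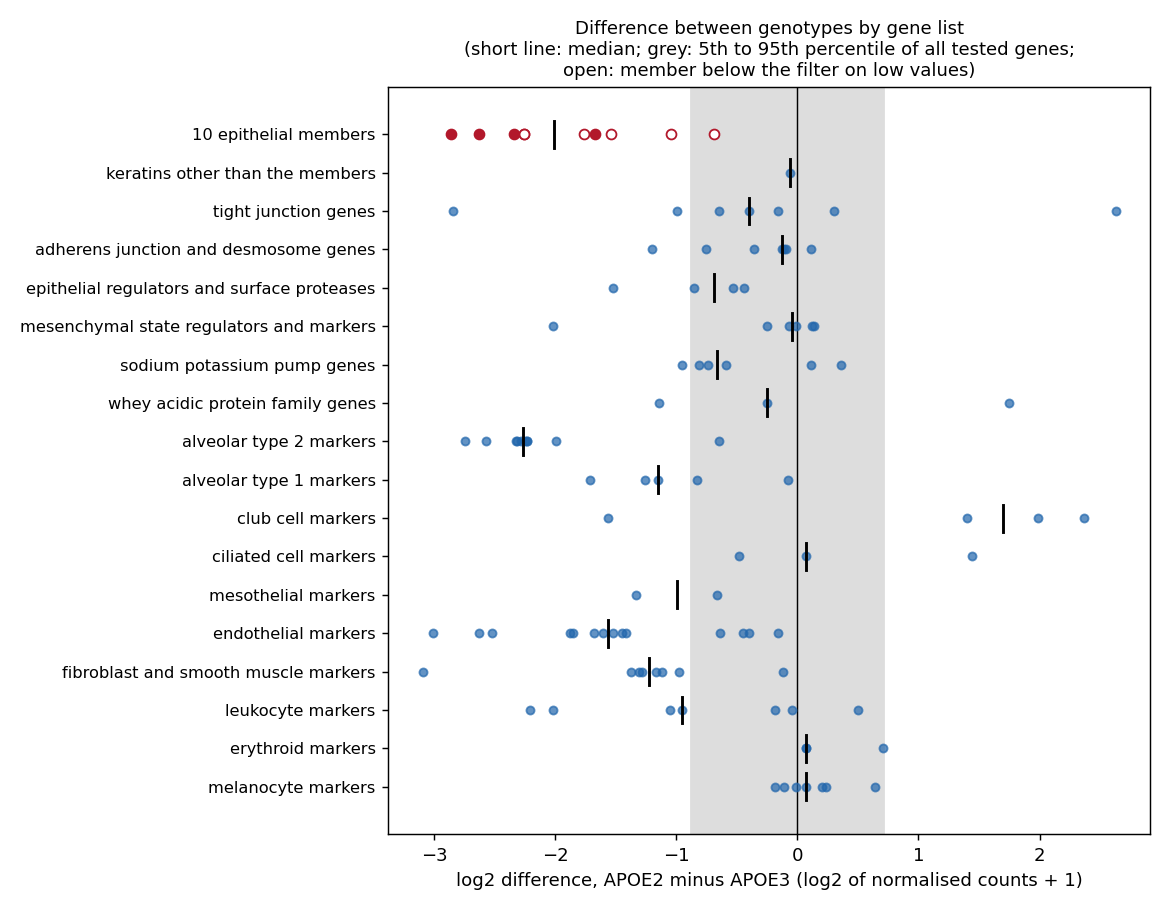
The x axis is the log2 difference, APOE2 minus APOE3, with 1 point per gene, 1 row per list and a short line at each median. The grey band spans the 5th to 95th percentile of tested genes. All 10 members lie left of 0, including Muc1, Wfdc2 and Atp1b1, which were picked for this. So do all points of the alveolar type 2 (median −2.27), endothelial (−1.56), fibroblast and smooth muscle (−1.23) and alveolar type 1 (−1.15) rows. The points of the mesothelial, epithelial regulator and other keratin rows do so too. The medians of the mesenchymal and melanocyte rows are −0.04 and 0.07.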

How the data were processed

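Sorted melanoma cells from the lungs of 8 APOE2 and 5 APOE3 mice were sequenced as 3′ tags (QuantSeq FWD), per the labels' protocols. The values the authors deposited are a signal, normalised counts in 1 table. The submitters' processing notes name STAR 2.6.0, featureCounts, DESeq2 1.28.1 and mm10; annotation and strand setting are not given in the sources used here. All nonzero values (100%, tolerance 0.01) were whole multiples of 1 step per library, which gave back whole reads. Symbols came from GENCODE M21 for 22649 of 22656 identifiers.

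Values were taken as log2(value + 1), a scale that understates the change of low genes, and 12403 genes with a mean of at least 10 were fitted with limma 3.58.1 (R 4.3.3, intensity trend, two-sided, Benjamini-Hochberg over all genes tested, threshold 0.05). The text names all 10 members, in each of 18 lists the 2 tested genes with the smallest unadjusted p or a count of those called, and for each of 5 tested members the 3 genes most like it. Further list genes (Ctnnb1, Ctnna1, Zeb2, Ocln, Krt23, Muc16, Muc5b, Muc5ac, Muc15 and those at 0 reads) were chosen for their role or direction after values were seen. Emcn, Tek, Tie1, Spint1 and Nkx2-1 are named for their low mean in APOE2. Genes with a mean under 10 in 1 genotype, such as Cldn3, Tjp3, Grhl1, Spint1, Zeb1, Wfdc3, Msln, Nkx2-1, Emcn, Tek and Tie1, passed the filter through the other genotype alone. Their p-values support nothing, and list medians that include such genes are given as a description only. Members and lists were chosen with earlier results of these data known. Alternatives were pseudocounts of 0.5 and 5, no filter, a minimum mean of 50, equal totals, TMM, limma without trend, edgeR 4.0.16, DESeq2 1.42.0, each library left out and the replicate number as a block, and, chosen after seeing the data, replicates 1 to 5 of each group unpaired. Read floors of 3 reads cover counting error only, since no molecular identifiers mark reads that are copies of 1 molecule.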

Additional observations from a re-analysis of the deposited data

Results flagged for a closer look

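Each genotype group was screened for a library whose log2 value of a member stood far from the rest of its group, by Dixon's criterion at 95%. In 20 screens 3 values stood apart, where chance gives about 1 if the screens are independent and the values normal. Epcam had 0 reads in 6 of 8 APOE2 libraries. Muc1 and Atp1b1 varied together (r = 0.81 over 13 libraries with genotype means removed). No excess over chance is therefore read from this count. APOE3 replicate 1 was low for Muc1, at 4.66 on the log2 scale (24.2 normalised counts), and for Atp1b1, at 5.98 (62.1 normalised counts). APOE2 replicate 1, the library with the most reads, was high for Epcam, at 2.14 (5 reads).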

How the results depend on the processing

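The alternatives run for each member kept its difference below 0. The count of genes called over the whole table, 98 with limma (51 higher and 47 lower in APOE2), was 9 with no filter on low values, 0 without the variance trend (1599 at an unadjusted p under 0.05), 311 with DESeq2 and 40 with replicates 1 to 5 of each group, and ran from 9 (without APOE3 replicate 3) to 228 (without APOE3 replicate 1) with 1 library left out, with 28 to 57 without APOE2 replicate 1, 2, 5, 7 or 8 and 30 without APOE3 replicate 4. With equal library totals the split was 38 higher and 54 lower. Of the 2 tested members listed by function, 0 were called as reported above, 1 with a pseudocount of 5, 2 with edgeR and 2 with DESeq2, and 0 to 1 with 1 library left out. Over all genes tested, 73 were called lower with a pseudocount of 5, 77 (0.621%) with edgeR and 158 (1.27%) with DESeq2. Cldn3, the member called with a pseudocount of 5, had to differ to be tested, so nothing is read from these member counts. Equal replicate numbers did not deviate together (r from −0.0628 to 0.0141 over 5 pairs). With the replicate block, on the same 10 libraries, 62 genes and 0 of the members listed by function were called. The number of members that followed the surfactant sum within APOE2, 4 of 5, was 1 to 4 with 1 library left out and 4 under the 3 other settings run, and r of Cldn3 ran from −0.243 to 0.116. The cause of these shifts was not tested. The share of all tested genes that followed the surfactant sum was not computed, so 4 of 5 is not read as particular to these members. At 7080308 to 13039989 reads per library, Epcam and the 4 keratins had 0 to 38 reads in each, which limits their precision; what difference could be detected at that level was not tested.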
